A study of Arabidopsis thaliana with 4 samples.

Results

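Bisulfite sequencing of genomic DNA was used to compare ndx1-4 seedlings, which carry a mutant allele of NODULIN HOMEOBOX (NDX), with Col-0 seedlings, the wild type, both at 14 days of age. There were 2 libraries per genotype, and the labels name no further treatment and do not say how many plants went into a library or whether the libraries of a genotype came from separate plants. The described regions are the places in the 10 outer flanks of the pericentromeres, left and right of the core on each of the 5 nuclear chromosomes, where the CHH methylation level was lower in ndx1-4 than in Col-0. They were chosen by 3 properties of the authors' list of differentially methylated regions: the CHH context, a lower mean level in ndx1-4, and a midpoint inside a fixed window. The windows were 12.9 to 13.6 and 16.2 to 16.9 Mb on chromosome 1, 2.0 to 3.9 and 5.5 to 6.6 Mb on chromosome 2, 11.2 to 11.7 and 15.2 to 16.0 Mb on chromosome 3, 2.4 to 3.1 and 5.1 to 5.8 Mb on chromosome 4, and 10.1 to 10.6 and 13.4 to 14.4 Mb on chromosome 5, all in build TAIR10. A nuclear copy of mitochondrial DNA on chromosome 2 (chr2:3250465-3509765) was left out. This gave 419 regions out of 564 CHH regions listed in the flanks, 3177 on the nuclear chromosomes and 7023 regions of all contexts in the table.

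Each listed region came with 1 mean methylation level per genotype, a fraction of 0 to 1 in which the authors had combined both libraries. The spread between libraries is therefore unknown, no test over samples could be made, and the read coverage behind each level is also unknown. The labels state 15000000 to 17000000 raw reads per library. Because the direction of the difference chose the regions, all levels, differences and shares that fell are a description. Intervals (95%) are Wilson intervals for shares and order-statistic intervals for medians, and cover the counting of regions only. Regions are not replicates of a genotype, and all of them share the same 4 libraries.

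Plants methylate cytosine in the contexts CG, CHG and CHH (H stands for A, C or T). CG and CHG sites are symmetric, so the mark on the old strand can guide the enzyme after replication. CHH sites are not, and the mark has to be set anew, in Arabidopsis by CMT2, a chromomethylase that works in heterochromatin bound by dimethylated histone H3 lysine 9, and by DRM2, which is guided by small RNAs in the RNA-directed DNA methylation pathway. Pericentromeres are rich in transposons and other repeats, and toward their outer sides this heterochromatin gives way to the gene-rich arms. The windows are called outer flanks by their position, and not every stretch inside them is such a transition. NDX is a plant homeobox protein.

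The member with the largest fall of each flank was picked among those with 20 or more cytosines, and 6 of these 10 held a run of at least 10 bases in which G and A alternate (C and T on the other strand). The sequences of 5 of them are shown because the run is visible by eye and because most of their CHH cytosines are on 1 strand. All sequences are those of the RefSeq TAIR10.1 assembly, plus strand, 5′ to 3′, up to the first 300 bases of the region. Capital C marks a cytosine in CHH context on the printed strand, and capital G marks a base whose partner on the other strand is such a cytosine.
chr1:12907520-12907759: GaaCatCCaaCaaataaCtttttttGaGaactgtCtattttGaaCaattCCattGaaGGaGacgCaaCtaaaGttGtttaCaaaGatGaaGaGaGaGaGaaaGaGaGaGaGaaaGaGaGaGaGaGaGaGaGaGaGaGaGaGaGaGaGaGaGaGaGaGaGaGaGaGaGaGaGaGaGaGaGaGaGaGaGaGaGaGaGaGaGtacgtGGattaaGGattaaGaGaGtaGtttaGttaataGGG
chr2:3110548-3110847: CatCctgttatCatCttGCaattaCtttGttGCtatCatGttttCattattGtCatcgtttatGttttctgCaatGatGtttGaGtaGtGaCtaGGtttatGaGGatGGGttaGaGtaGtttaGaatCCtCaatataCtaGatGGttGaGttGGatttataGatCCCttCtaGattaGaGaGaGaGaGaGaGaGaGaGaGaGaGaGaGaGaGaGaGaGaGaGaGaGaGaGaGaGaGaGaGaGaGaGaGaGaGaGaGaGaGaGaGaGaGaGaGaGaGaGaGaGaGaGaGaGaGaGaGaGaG
chr3:11409291-11409590: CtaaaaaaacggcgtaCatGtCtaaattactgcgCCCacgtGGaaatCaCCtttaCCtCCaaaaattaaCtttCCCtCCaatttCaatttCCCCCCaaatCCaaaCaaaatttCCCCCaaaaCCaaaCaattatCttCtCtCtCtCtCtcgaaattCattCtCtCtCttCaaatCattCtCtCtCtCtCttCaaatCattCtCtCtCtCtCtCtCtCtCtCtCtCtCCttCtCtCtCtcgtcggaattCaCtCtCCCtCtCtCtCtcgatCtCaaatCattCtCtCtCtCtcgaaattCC
chr4:5575338-5575611: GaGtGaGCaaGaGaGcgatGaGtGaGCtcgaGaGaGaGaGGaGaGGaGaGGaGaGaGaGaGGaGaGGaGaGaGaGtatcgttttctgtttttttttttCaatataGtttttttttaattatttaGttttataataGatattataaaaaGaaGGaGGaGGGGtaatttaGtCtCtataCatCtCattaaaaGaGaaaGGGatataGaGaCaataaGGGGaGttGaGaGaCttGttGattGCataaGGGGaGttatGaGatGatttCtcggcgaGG
chr5:14182573-14182834: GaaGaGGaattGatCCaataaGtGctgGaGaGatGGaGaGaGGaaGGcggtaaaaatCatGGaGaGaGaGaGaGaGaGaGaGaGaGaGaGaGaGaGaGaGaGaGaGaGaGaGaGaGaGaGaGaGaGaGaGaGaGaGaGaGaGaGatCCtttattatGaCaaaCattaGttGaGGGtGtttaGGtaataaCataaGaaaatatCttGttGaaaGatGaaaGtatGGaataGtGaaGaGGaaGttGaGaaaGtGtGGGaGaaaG

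The longest alternating runs in these 5 regions were 86 bases on chromosome 1, 180 bases on chromosome 2, 28 bases on chromosome 3, 11 bases on chromosome 4, and 84 bases on chromosome 5. In the printed stretch of chromosome 1, 12 CHH cytosines were on the printed strand and 77 on the other one. The chromosome 2 stretch had 20 and 95. In the chromosome 3 stretch the order was the reverse, with 98 on the printed strand and 3 on the other. In an alternating run every C is followed by T and C, which is a CHH site, so 1 strand of the run is dense in CHH cytosines and the other has none.

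The level at chr1:12907520-12907759 was 0.259 in ndx1-4 and 0.521 in Col-0, the highest Col-0 level of the 419 regions and also their largest fall (-0.262). The region counted 83 cytosines and lay 1089 bp from the nearest protein-coding gene, AT1G35220. At the chromosome 2 region the level was 0.193 in ndx1-4 and 0.442 in Col-0 (difference -0.249, 153 cytosines). The next largest fall of any member was -0.198. Both regions lay outside every annotated gene, pseudogene record and 1 kb upstream stretch.

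The chromosome 5 region had 0.145 in ndx1-4 and 0.316 in Col-0. The chromosome 3 region, part of which lies in pseudogene record AT3G29610, had 0.126 in ndx1-4 and 0.289 in Col-0. The chromosome 4 region had 0.167 in ndx1-4 and 0.284 in Col-0.

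The run was looked at in all regions after it had been seen in these sequences, as the letters GAGAGAGAGA or, for the other strand, TCTCTCTCTC. It was held by 12 of 419 flank losses (2.86%, 1.65 to 4.94), in 8 of the 10 flanks. Of all end-to-end windows of the same lengths in the same flanks, 0.516% held it. Of the CHH gains in the flanks, 5 of 145 held it too (3.45%, 1.48 to 7.82), as did 12 of 788 losses in the cores (1.52%, 0.873 to 2.64). The 12 flank losses with the run had median levels of 0.135 in ndx1-4 and 0.286 in Col-0, and the 407 without it had 0.0622 in ndx1-4 and 0.138 in Col-0. These 12 include the 6 largest falls by flank in which the run was first seen. The contrast in levels is therefore not independent of that choice and is only a description. The share of the Col-0 level left was 48.7% at the median with the run and 45.5% without it. In the regions with the run, 84.0% of positions at the median were the centre of a 31-base word found once in the nuclear genome, against 93.5% in those without. The share of sequencing reads that could be placed in such runs was not tested.

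The other 4 largest falls had no such run. Chromosome 1 right had its largest fall at chr1:16636559-16636936, with 0.180 in ndx1-4 and 0.330 in Col-0, and this stretch had 16 further copies in the genome, 12 of them in the cores. The largest fall of chromosome 2 right, at chr2:5809903-5810077, lay whole in pseudogene record AT2G13860, had 39 further copies and showed 0.125 in ndx1-4 and 0.289 in Col-0. On chromosome 3 right it was at chr3:15331227-15331489, within the 1 kb upstream of AT3G43400, with 0.164 in ndx1-4 and 0.362 in Col-0. On chromosome 5 left it was at chr5:10397077-10397238, with 0.186 in ndx1-4, 0.300 in Col-0 and 24 further copies.

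Across all 419 regions the median CHH level was 0.0631 in ndx1-4 (0.00853 to 0.329) and 0.139 in Col-0 (0.0399 to 0.521). The median difference was -0.0754, with a range of -0.262 to -0.0276. The fall was partial nearly everywhere: the median region kept 45.7% of its Col-0 level in ndx1-4 (44.5 to 46.8; SD over regions 10.1), and the middle 50% of regions kept 39.6% to 51.5%. Fewer than 25% was left in 18 regions (4.30%, 2.73 to 6.69), and no region kept more than 70.4%. For comparison, CHH losses in the cores between the flanks kept 46.0% at the median and losses elsewhere on the nuclear chromosomes kept 43.2%. The losses elsewhere were more spread: 140 of 635 of them (22.0%, 19 to 25.4) kept fewer than 25%, while in the cores it was 31 of 788 (3.93%, 2.79 to 5.53).

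**Figure D1:**
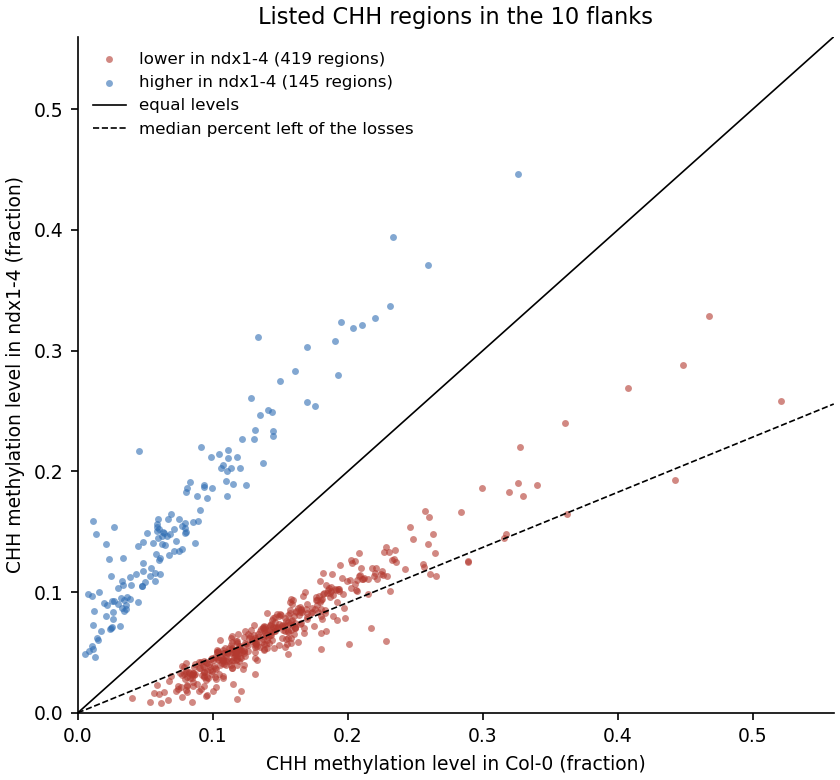
Mean CHH methylation level (fraction) of the 564 listed CHH regions in the flanks, with ndx1-4 on the vertical axis and Col-0 on the horizontal axis; each point is 1 region. The 419 losses lie below the line of equal levels and spread around the dashed line at 45.7% of the Col-0 level, and the 145 gains lie above the line of equal levels.

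The level left in ndx1-4 followed the Col-0 level closely, with Pearson's r of 0.953 over the 419 regions, which share their libraries and were chosen on this contrast. The fraction kept was larger where Col-0 was higher. The 140 regions with the lowest Col-0 levels (median 0.0980) kept 38.7% in ndx1-4, the 140 in the middle (median 0.139) kept 46.0%, and the 139 with the highest levels (median 0.198) kept 52.0%. The Col-0 level is also the denominator of that percent and the list holds no small differences, and their part in the trend was not tested. In the same order, 22.1%, 29.3% and 40.3% of the regions overlapped a pseudogene record.

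The regions were short. Their median length was 132 bp (51 to 1031) and they counted 37 cytosines at the median (7 to 197), and in 336 of them (80.2%) the count equalled the number of CHH cytosines of the reference sequence. Neighbouring losses in a flank were 10689 bp apart at the median (50 to 274010), and 40 of 409 gaps were within 1 kb. Merging those gave 379 separate places, of which 4 joined 3 regions each: 1175 bp on chromosome 1 left, 2062 bp on chromosome 2 left, 934 bp on chromosome 3 right and 1192 bp on chromosome 5 right. The nearest other CHH loss was 4976 bp away at the median and the nearest CHH gain 26843 bp, and 84 of the 419 regions lay nearer to a gain. The flanks held 419 losses and 145 gains (74.3% losses), so a loss is more often the nearer region from the counts alone.

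Of the CHH regions listed in the flanks 74.3% (70.5 to 77.7) were lower in ndx1-4, against 58.1% of all listed CHH regions on the nuclear chromosomes, 88.8% in the cores and 36.9% elsewhere. The direction is part of the rule, so these shares describe the flanks and support nothing. Losses stood at 50.3 per Mb in the flanks, 64.0 per Mb in the cores and 6.48 per Mb elsewhere. Gains stood at 17.4 per Mb in the flanks, 8.04 per Mb in the cores and 11.1 per Mb elsewhere. The flanks thus had fewer losses and more gains per Mb than the cores, and more of both than the rest of the chromosomes.

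The counts varied among the flanks, as a description of the listed regions. Chromosome 2 left, the longest, held 114 losses and 24 gains (82.6%, 75.4 to 88.0), and with 69.5 losses per Mb it was the densest. Chromosome 5 left held 32 losses and 3 gains (91.4%, 77.6 to 97). Chromosome 4 right stood at the other end with 18 losses and 17 gains (51.4%, 35.6 to 67) and 25.7 losses per Mb. The other 7 flanks held 63.6% to 80.4% losses. The depth of the loss was more even than its frequency. The median share of the Col-0 level left in ndx1-4 was lowest on chromosome 4 right (42.6%, 38.1 to 50.9). It was highest on chromosome 3 left (49.6%, 44.4 to 54.1), and these intervals overlap. The median Col-0 levels of the losses there were 0.114 on chromosome 4 right and 0.154 on chromosome 3 left, and their part was not tested.

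**Figure D2:**
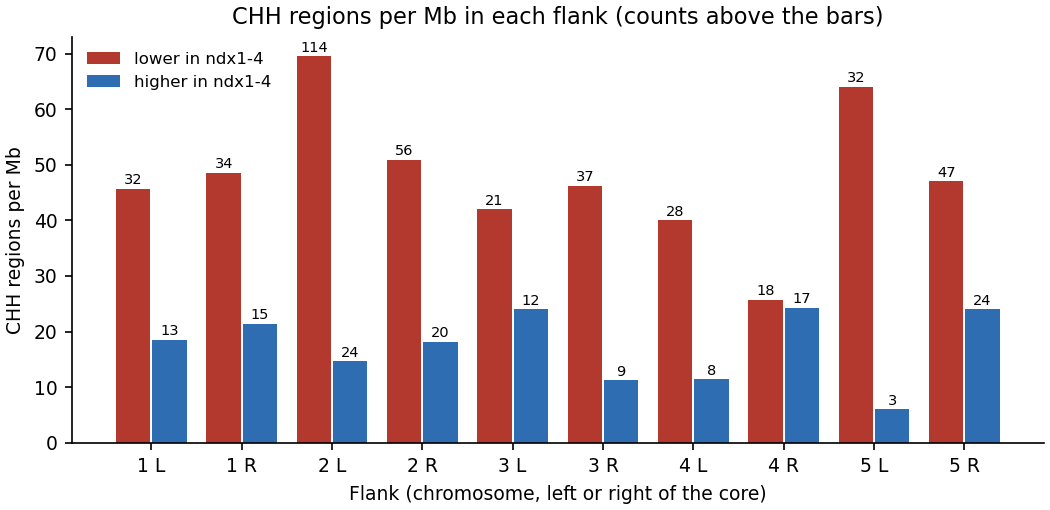
Listed CHH regions per Mb (vertical axis) in each flank, named by chromosome and side, with losses left and gains right and the number of regions above each bar. Losses outnumber gains in each of the 10 flanks, by 32 to 3 on chromosome 5 left and by 18 to 17 on chromosome 4 right.

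**Figure D3:**
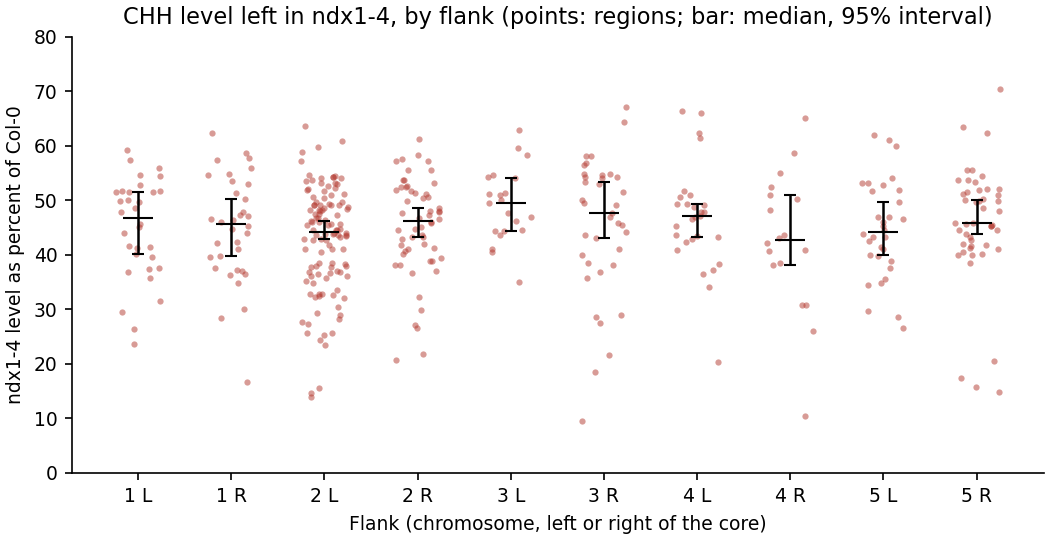
CHH level in ndx1-4 as a percent of the Col-0 level (vertical axis) for each of the 419 losses, by flank; bars are medians with 95% order-statistic intervals over regions. The medians lie between 42.6% and 49.6%.

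Within the flanks, the part next to the core held 226 losses and 59 gains (79.3% losses, 74.2 to 83.6), and the part next to the arm held 193 losses and 86 gains (69.2%, 63.5 to 74.3), with each flank divided at its midpoint. The mitochondrial DNA copy that was left out lies in the core-side part of chromosome 2 left, so the core-side parts held 4.04 Mb and the arm-side parts 4.30 Mb. Per Mb this was 55.9 losses and 14.6 gains on the core side, and 44.9 losses and 20 gains on the arm side. The split was not the same in every flank: losses were more numerous on the core side in 6 flanks and on the arm side in 4, and gains were more numerous on the core side in 2 flanks and on the arm side in 7. Regions on the core side kept 44.6% of the Col-0 level at the median and those on the arm side 46.8%. Their median Col-0 levels also differed, at 0.133 on the core side and 0.145 on the arm side, and the part of this was not tested.

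**Figure D4:**
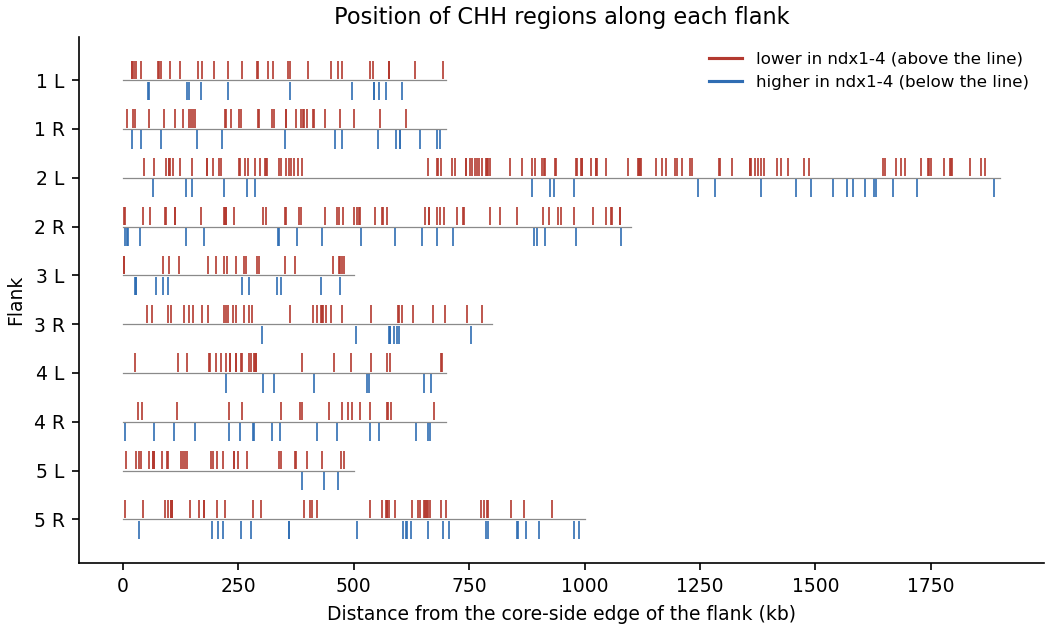
Position of each listed CHH region, as distance in kb from the core-side edge of its flank (horizontal axis), with 1 line per flank, losses above and gains below the line. Losses are spread along the whole length of each flank, and the stretch without regions on chromosome 2 left is the mitochondrial DNA copy that was left out.

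Losses were also listed beyond the edges of the windows, but not alike on the 2 sides. At the 20 edges the first loss inside lay 21.9 kb from the edge at the median (1.41 to 87.7), with median levels of 0.0664 in ndx1-4 and 0.139 in Col-0. The first loss outside lay 17.5 kb away at the median (0.401 to 146.9), with 0.0641 in ndx1-4 and 0.153 in Col-0. That distance was 0.934 to 34.9 kb at the edges that face a core, and 0.401 to 146.9 kb at those that face an arm. Losses stood at 64.0 per Mb in the cores and 6.48 per Mb elsewhere, against 50.3 per Mb in the flanks.

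The loss was mostly a loss of CHH methylation alone, as far as the list goes. Of the 419 regions, 22 (5.25%, 3.49 to 7.82) overlapped a listed CG or CHG region, and the share was 8.59% when a listed region within 500 bp counted. By overlap it was 31 of 788 losses in the cores (3.93%, 2.79 to 5.53), 120 of 635 losses elsewhere (18.9%, 16.0 to 22.1) and 30 of 145 gains in the same flanks (20.7%, 14.9 to 28.0). The flanks themselves held 138 lower and 151 higher CG regions and 87 lower and 31 higher CHG regions. The share of flank bases in these regions was not computed. Whether 5.25% is more or less than their placement alone would give is therefore not known. CG and CHG differences too small for the list cannot be seen here.

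Where the contexts did meet, they moved the same way. All 17 overlapping CG regions and all 16 overlapping CHG regions were lower in ndx1-4, and 11 members overlapped both kinds. At the median, the CG level was 0.0619 in ndx1-4 and 0.774 in Col-0 and the CHG level 0.0361 in ndx1-4 and 0.312 in Col-0. The share left varied widely, from 2.46% to 88.8% for CG and from 3.87% to 76.1% for CHG. The 17 members at CG regions kept 20.3% of the Col-0 CHH level at the median (15.6 to 26.6). The 16 at CHG regions kept 20.5% (15.6 to 37.7), and the 397 members with neither kept 46.0% (45.1 to 47.3). Their median Col-0 CHH levels also differed, at 0.0956, 0.0954 and 0.142, and the part of this difference in the shares left was not tested.

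Of these 11 members, 4 with large summed falls over the 3 contexts are described. Their CHG and CG levels are those of the listed regions that overlap them. At chr3:15341987-15342180 the CHH level was 0.0185 in ndx1-4 and 0.10 in Col-0. The CHG region there (chr3:15342145-15342319) had 0.0214 in ndx1-4 and 0.436 in Col-0. The CG region (chr3:15342175-15342299) had 0.0299 in ndx1-4 and 0.852 in Col-0. Both overlapped only the right end of the CHH region and lay mostly beyond it. At chr2:2518411-2518984, a region of 141 CHH cytosines, CHH was 0.0104 in ndx1-4 and 0.0669 in Col-0, CHG 0.0471 in ndx1-4 and 0.304 in Col-0, and CG 0.0729 in ndx1-4 and 0.881 in Col-0. The listed regions of all 3 contexts at these 2 places were close to unmethylated in ndx1-4, and their CG regions were highly methylated in Col-0. CG methylation stayed higher in the other 2, with 0.195 in ndx1-4 and 0.812 in Col-0 at chr2:6162635-6162801, and 0.200 in ndx1-4 and 0.736 in Col-0 at chr2:5851557-5851711.

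The reference sequence of the chromosome 3 place, with the CHH cytosines in capitals as above, has CHH cytosines on both strands and no long run.
chr3:15341987-15342180: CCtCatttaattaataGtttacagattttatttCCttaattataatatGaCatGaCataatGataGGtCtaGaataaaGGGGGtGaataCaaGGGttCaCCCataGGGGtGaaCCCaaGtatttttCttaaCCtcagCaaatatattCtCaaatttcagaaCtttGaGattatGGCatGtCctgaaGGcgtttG

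The lowest share left was at chr3:15673474-15673627, in pseudogene record AT3G43825, with 0.0113 in ndx1-4 and 0.118 in Col-0 (9.55% left) and no listed CG or CHG region. Another of the 3 lowest was chr2:3012807-3012978, 474 bp from AT2G07240 and inside its 1 kb upstream stretch, with 0.00853 in ndx1-4 and 0.0613 in Col-0 (13.9% left), where the CG level was 0.0328 in ndx1-4 and 0.774 in Col-0. In both, every 31-base word was found once in the genome. At the other end, chr4:2606070-2606235 kept 66.5% (0.240 in ndx1-4, 0.361 in Col-0), chr3:15978001-15978158 kept 67.1% (0.220 in ndx1-4, 0.328 in Col-0, 78 further copies) and chr5:14240148-14240271 kept 70.4% (0.329 in ndx1-4, 0.467 in Col-0). The 3 that kept most were above the Col-0 median of 0.139 and these 2 were below it.

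Few of the losses were in genes. A protein-coding gene was overlapped by 39 regions (9.31%, 6.88 to 12.5), while 23.0% of the flank bases lie in such genes. For gains in the same flanks the share was 13.1% (8.55 to 19.6), for losses in the cores 4.95% (3.64 to 6.69) and for losses elsewhere 19.7% (16.8 to 23.0). Pseudogene records, which in these parts of the annotation include remains of transposons, were overlapped by 128 flank losses (30.5%, 26.3 to 35.1), against 18 flank gains (12.4%, 8.0 to 18.8), 38.7% of core losses (35.4 to 42.2) and 25.6% of flank bases. A region counts when any of its bases is in the feature, so its share is not the same measure as a share of bases. By the midpoint alone, 28.4% of flank losses were in a pseudogene record and 7.88% in a protein-coding gene. The 1 kb upstream of a gene was overlapped by 37 flank losses (8.83%, 6.47 to 11.9), against 39 flank gains (26.9%, 20.3 to 34.6), 26.6% of losses elsewhere (23.3 to 30.2) and 10.7% of flank bases. Flank losses and flank gains thus had separate intervals for pseudogene records and for upstream stretches, and overlapping ones for genes. The nearest protein-coding gene was 3275 bp from a flank loss and 828 bp from a flank gain at the median. No feature was overlapped by 220 losses (52.5%, 47.7 to 57.2). The share was close to that of flank gains (52.4%, 44.3 to 60.4) and core losses (53.4%, 49.9 to 56.9). It was 41.1% for losses elsewhere, and 41.7% of flank bases lie in no feature. Transposons were not annotated in the reference used here.

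**Figure D5:**
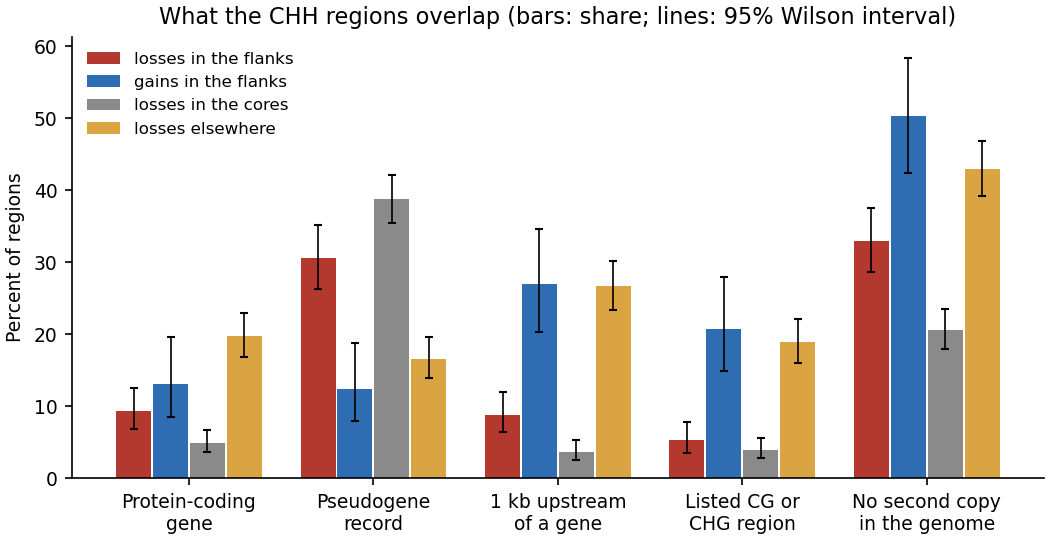
Percent of regions (vertical axis) that overlap each kind of feature or have no second copy in the genome, for losses in the flanks, gains in the flanks, losses in the cores and losses elsewhere on the nuclear chromosomes, with 95% Wilson intervals. For pseudogene records the flank losses stand at 30.5% and the flank gains at 12.4%, and for the 1 kb upstream of genes at 8.83% and 26.9%.

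The 39 regions in genes overlapped 37 genes, with 26 in coding sequence, 9 in introns alone and 4 in exons outside the coding sequence. Only 3 genes held 2 regions each. In AT1G35820, annotated as a heat shock protein, 1 region lay whole in coding sequence, with 0.0536 in ndx1-4 and 0.112 in Col-0. The other reached only 20 of its 129 bases into that gene, with 0.0770 in ndx1-4 and 0.192 in Col-0. In AT2G07040 (PRK2A, a leucine-rich repeat receptor-like kinase of pollen) both regions lay in coding sequence, at chr2:2917088-2917219 with 0.0435 in ndx1-4 and 0.133 in Col-0 and at chr2:2917641-2917759 with 0.0492 in ndx1-4 and 0.108 in Col-0. In AT5G28410, an uncharacterized gene, both lay in introns, with 0.0492 and 0.0425 in ndx1-4 and 0.114 and 0.0913 in Col-0.

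Among genes with 1 region the largest falls were in AT5G36180 (scpl1) and AT2G06255 (ELF4-L3). The region in scpl1, a serine carboxypeptidase-like gene, is the member with the highest share left; it lies whole in an intron and had no second copy in the genome, and is shown because it is the only named region inside a protein-coding gene that kept so much.
chr5:14240148-14240271: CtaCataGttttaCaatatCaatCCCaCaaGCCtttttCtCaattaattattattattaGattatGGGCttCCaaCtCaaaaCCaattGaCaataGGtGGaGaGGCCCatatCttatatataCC
In ELF4-L3, a gene of the EARLY FLOWERING 4-like family, the region chr2:2459741-2459894 lay in an exon outside the coding sequence, with 0.0981 in ndx1-4 and 0.215 in Col-0. Of 15 genes of DNA methylation pathways looked up, 1, DCL3, which encodes the Dicer-like enzyme that makes the small RNAs of RNA-directed DNA methylation, has its own locus in a flank (AT3G43920, chr3:15753387-15760859), and the nearest loss was 16602 bp away. The other 14 genes of that list lie outside the flanks.

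The sequence of the losses was close to that of the flanks at large. Their GC content was 36.0%, and that of all flank sequence 35.2%. Of their 18419 CHH cytosines, 27.3% (26.7 to 28.0) were in CAA or CTA, the contexts that CMT2 is known to prefer, against 30.1% in flank gains and 28.8% in all flank sequence. CTC was the context with the largest excess over the flanks, at 11.8% of CHH cytosines in losses and 10.2% in all flank sequence, and is the one that the alternating runs are made of. The CAA and CTA share of a region said little about its loss (Pearson's r of -0.0713 with the share of the Col-0 level left). On 1 strand alone lay 90% or more of the CHH cytosines of 20 regions (4.77%, 3.11 to 7.26). This also held for 6 of 145 flank gains (4.14%, 1.91 to 8.73) and 30 of 788 core losses (3.81%, 2.68 to 5.38). Among losses elsewhere it held for 33 of 635 (interval 3.72 to 7.21). These intervals overlap, so such a strand bias did not set the flank losses apart.

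Most losses held sequence that is unique in the genome. Of their bases, 79.3% were the centre of a 31-base word found once in the nuclear genome, against 86.3% for flank gains, 66.8% for core losses and 81.0% for all flank sequence. No second copy (80% identity over 80% of the length) was found for 138 losses (32.9%, 28.6 to 37.6), against 50.3% of flank gains (42.3 to 58.4) and 20.6% of core losses (17.9 to 23.5), so that the 3 intervals do not meet. At least 10 copies were found for 108 losses (25.8%, 21.8 to 30.2), against 24.1% of flank gains (17.9 to 31.7) and 46.2% of core losses (42.7 to 49.7). At least 100 were found for 22 losses (5.25%, 3.49 to 7.82), against 7.59% of flank gains (4.29 to 13.1) and 16.8% of core losses (14.3 to 19.5). Flank losses and flank gains thus overlapped on both of these measures. The 159 regions made only of single-copy words kept 43.3% of the Col-0 level, the 244 with some such words 47.1% and the 16 with none 43.8%, but their median Col-0 levels also differed, at 0.118, 0.149 and 0.143.

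Some copies of the lost regions were on the list themselves. Of the 281 regions with a copy, 83 (29.5%) had at least 1 copy that overlapped a listed CHH loss and 198 had none. The same share was not computed for other sequence, and a region with more copies has more places to meet a listed loss. The 29.5% is therefore a count only. Copies were counted for each region, so a place that matches several regions counts more than once. Counted this way, the 281 regions had 14108 copies, of which 362 overlapped a listed CHH loss, 87 a listed CHH gain and 13659 neither. The 10 regions with most copies account for 9297 of them.

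Matches between the regions (80% identity over 100 bp or more) joined 22 of them into 7 families. The largest had 6 members, all on chromosome 2 left between 3613878 and 3693032, with identities of 80.7% to 94.2%. They had 11 to 29 further copies each, of which up to 27 were in flanks and up to 3 in cores, and 2 of the 6 are shown as examples of a repeat with several listed losses in 1 stretch. In this family ndx1-4 kept 24.3% to 43.8% of the Col-0 level (median 37.6%), so every member lay below the median share of all flank losses. Levels were 0.0319 to 0.0514 in ndx1-4 and 0.0933 to 0.131 in Col-0, below the Col-0 median of all losses (0.139). The 140 flank losses with the lowest Col-0 levels kept 38.7% at the median, close to this family. The part of the Col-0 level in the family's share was not tested.
chr2:3613878-3614177: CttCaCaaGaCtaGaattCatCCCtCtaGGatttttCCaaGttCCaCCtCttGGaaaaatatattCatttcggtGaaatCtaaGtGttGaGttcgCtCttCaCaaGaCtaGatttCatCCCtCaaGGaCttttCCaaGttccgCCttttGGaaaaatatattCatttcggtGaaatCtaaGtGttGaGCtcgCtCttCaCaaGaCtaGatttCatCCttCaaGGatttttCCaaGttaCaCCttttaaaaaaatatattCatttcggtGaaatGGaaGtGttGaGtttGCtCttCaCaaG
chr2:3686531-3686753: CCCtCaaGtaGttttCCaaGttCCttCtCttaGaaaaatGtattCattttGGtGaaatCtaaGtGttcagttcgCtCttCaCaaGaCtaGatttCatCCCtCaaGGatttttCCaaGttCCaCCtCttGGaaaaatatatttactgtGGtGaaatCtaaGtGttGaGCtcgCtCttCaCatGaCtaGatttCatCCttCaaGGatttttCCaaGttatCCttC

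The second family had 4 members on 4 chromosomes, all with the alternating run and 3 of them printed above, which are not otherwise shown to be related. The third had 4 members, 2 each on chromosome 2 left and chromosome 4 left, with 159 to 2082 further copies each, of which up to 1544 were in the cores and up to 539 in the flanks. Their sequences read as the centromeric satellite of Arabidopsis, a name given here from general knowledge and not from an annotation. At these 4 places the name outer flank describes the fixed window and not the kind of sequence. They had 0.0685 to 0.0753 in ndx1-4 and 0.141 to 0.161 in Col-0 and kept 43.7% to 51.7%, close to the median of all losses. The chromosome 4 region at 2962075 lies in an intron of AT4G05612, an uncharacterized gene.
chr4:2962075-2962220: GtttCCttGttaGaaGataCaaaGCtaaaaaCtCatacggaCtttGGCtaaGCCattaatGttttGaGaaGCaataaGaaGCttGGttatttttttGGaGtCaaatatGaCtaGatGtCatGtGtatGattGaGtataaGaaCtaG
chr4:2980679-2980810: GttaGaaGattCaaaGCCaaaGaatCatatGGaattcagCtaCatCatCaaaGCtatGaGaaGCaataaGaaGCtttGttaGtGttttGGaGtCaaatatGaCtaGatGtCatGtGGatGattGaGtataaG
chr2:3603691-3603839: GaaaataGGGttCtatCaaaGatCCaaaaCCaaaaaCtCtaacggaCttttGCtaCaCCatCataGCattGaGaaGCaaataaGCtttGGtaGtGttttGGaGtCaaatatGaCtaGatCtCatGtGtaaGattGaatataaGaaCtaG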

How the data were processed

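The 4 libraries (2 of ndx1-4, 2 of Col-0) were grouped by their titles. Per the labels, the authors used Bismark and build TAIR10; the region caller and thresholds are not given in the sources used here. The authors deposited differentially methylated regions with 1 mean methylation level per genotype as a fraction and the number of cytosines, with both libraries combined; their difference and area statistic columns were not used. The listed ends were read as 1-based, since both then fell on a CHH cytosine in 3177 of 3177 regions, against 3.15% if read as 0-based. Annotation and sequence came from RefSeq TAIR10.1. Genome copies were searched with blastn 2.17.0 (80% identity over 80% of the region, low-complexity filter off), and words of 31 bases were counted on both strands. Statistics were computed in Python 3.11.15 with scipy 1.17.1, and the sequence steps were tested on simulated data. Named regions were the largest fall in each flank, the 3 lowest and the 3 highest shares left, the 5 largest summed falls over 3 contexts, 5 genes and 3 families; 2 of the regions this rule named are not reported here. The regions, lists and the rule were chosen with earlier results of these data known, and the alternating run was chosen after the sequences were seen. Alternatives moved the flank edges, chromosomes, overlap and word length.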

Additional observations from a re-analysis of the deposited data

How the results depend on the processing

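Over 8 results, 33 alternatives were run, and 28 moved the value by less than its interval (counts, by less than 1.5 times). With flank edges moved by 0.1 Mb the number of losses was 344 (inward) or 512 (outward), against 419. The share of flank CHH regions that fell was 66% among differences of 0.1 or more, against 74.3%. The share of the Col-0 level left was 43.6% as a mean weighted by cytosines, against 45.7% as the median. The share at a CG or CHG region was 8.59% when regions within 500 bp counted, against 5.25%. The median share of single-copy positions was 76.2% with words of 21 bases and 100% with words of 75 bases, against 93.3%; a longer word is unique more often by construction. Leaving out each chromosome in turn gave a share that fell of 71.1% to 75.7% and a share left of 45.3% to 46.0%. No paired analysis was possible because the deposited table gives 1 mean per genotype and no value per library, so leaving out a library was not possible either. Only regions past the authors' calling limits are listed, and the smallest listed CHH difference was 0.0203, so a smaller change cannot be seen.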
